A study of Mus musculus with 12 samples.

Results

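The genes described here code for heterotrimeric G proteins and the proteins that act directly on them. They were taken as all probe sets that name 1 gene among the G alpha (Gna, without Gnas), G beta (Gnb1 to Gnb5), G gamma (Gng and Gngt), RGS, Gpsm and Grk symbols. The rule gave 135 probe sets of 59 genes, out of 44238 probe sets tested and 17996 genes named by a single symbol. There were 42 probe sets of 14 G alpha genes, 10 of 5 G beta genes, 21 of 11 G gamma genes, 46 of 21 genes with an Rgs symbol, 5 of 3 Gpsm genes and 11 of 5 Grk genes. Rgs9bp and Rgs7bp enter through their symbols and code for proteins that anchor RGS proteins.

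A heterotrimeric G protein couples a receptor of the cell surface to enzymes and channels inside the cell. An active receptor makes the alpha subunit exchange GDP for GTP, and the alpha subunit and the beta-gamma pair then act on adenylyl cyclases, phospholipase C beta and ion channels. RGS proteins speed up GTP hydrolysis and so end the signal, GPSM proteins bind GDP-loaded inhibitory alpha subunits, and GRK kinases phosphorylate active receptors, which arrestins then bind.

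RNA came from pools of somatic support cells, the lineage that becomes Sertoli cells in a testis and granulosa cells in an ovary. The 4 groups were XY gonads at E12.5, XX gonads at E12.5, XY gonads at E11.5 and XX gonads at E11.5, with 3 pools each and 1 Affymetrix array per pool. All groups were of 1 FVB.Cg strain that carries the transgenes Tg(Tyr)3412ARpw and also Tg(Sry-EGFP)92EI. By its name the second places EGFP under Sry sequences, and XX cells held it as well. How the sort was gated is not given here. Whether a pool was a separate litter is not stated, so p-values measure the spread between pools, which may be partly technical.

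The Sertoli list of 7 markers, Sox9, Amh and Dhh among them, averaged 10.52 to 10.77 in XY E12.5 pools and 6.62 to 6.72 in XX E12.5 pools, on the log2 scale. The pregranulosa list of 7, with Foxl2 and Fst, averaged 7.88 to 8.05 in XY E12.5 pools and 11.58 to 11.64 in XX E12.5 pools. All 7 genes of each list passed the test at E12.5. At E11.5 the Sertoli list averaged 9.48, 8.71 and 8.27 in XY pools 1, 2 and 3 and 6.85 to 7.07 in XX pools. The pregranulosa list averaged 9.84, 9.12 and 10.27 in XX E11.5 pools 1, 2 and 3 and 8.96 to 9.29 in XY E11.5 pools. On the endothelial and interstitial lists, XX E11.5 pool 2 stood apart. There the 15 endothelial markers averaged 8.34 (6.34 to 7.04 on the other 11 arrays) and the 10 measured markers of interstitial mesenchyme 10.02 (8.18 to 8.82). The 8 measured markers of coelomic and mesonephric epithelium averaged 7.36, 8.18 and 8.03 in XX E12.5 pools 1, 2 and 3, against 6.65 to 7.41 on the other 9 arrays. Values are log2 signals, and 5 Y-linked probe sets read 3.33 to 5.17 in XX cells, which gives the background range. They were those of Eif2s3y, Kdm5d and Uty whose XY values all exceeded their XX values. The range is that of these probe sets, so a signal above 5.17 need not mean expression. Of the member probe sets, 91 exceeded 5.17 on all 12 arrays, 15 never did, and Rgs13 and Gngt2 had no probe set above it on any array.

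Between the sexes, 1 member probe set was called at E11.5 and 14 at E12.5, and calls over all probe sets were likewise few at E11.5 and more frequent at E12.5. A probe set was called at a limma adjusted p under 0.05 over all 44238 probe sets. In XY against XX cells at E12.5, 14 of 135 member probe sets (10.4%) were called in 11 genes, against 7.72% of all probe sets. Of these, 5 were higher (3.7%, against 3.92% of all) and 9 lower (6.67%, against 3.81% of all). The higher genes were Gna13, Gnb5, Gng12 and Rgs9bp, and the lower ones Gnaz, Gng13, Gngt1, Gpsm3, Grk3, Rgs12 and Rgs2. At E11.5 a single probe set of Rgs4 was lower in XY cells (0.741%, against 0.0136% of all) and none was higher (0.0543% of all), with 0.0678% of all called in either direction. Dropping XX E12.5 pool 3 left 6 of the calls at E12.5, dropping XY E12.5 pool 3 left 8 and dropping XX E12.5 pool 2 left 9, and the E11.5 call is described with Rgs4 below. At an unadjusted p under 0.05 there were 9 member probe sets at E11.5 (6.67%, against 6.81% of all) and 30 at E12.5 (22.2%, against 20% of all). The called share at E12.5 and the unadjusted shares at both days lie near the background and are no result about the members as a set.

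From E11.5 to E12.5, 4 member probe sets increased (1.69% of all did) and 1 decreased (1.43% of all) in XX cells, 3.7% of members against 3.11% of all. They were Gng13, Rgs10, Rgs12 and 1 Rgs2 probe set upward and Rgs4 downward. In XY cells 3 increased (Gnb5, Gng12, Rgs9bp; 3.18% of all did) and 4 decreased (Gnai2, Grk3 and 2 probe sets of Rgs2; 2.98% of all), 5.19% of members against 6.16% of all. The sex difference changed with day at Gng13 and Rgs12, both downward (0.954% of all were, and 0.796% went upward), 1.48% of members against 1.75% of all. Leaving out 1 array moved these counts too. The XX count was 1 when XX E12.5 pool 2 was dropped, 2 for XX E11.5 pools 2 and 3 and XX E12.5 pool 3, and 3 for pool 1 of either E12.5 group. The XY count was 3 when XY E12.5 pool 3 was dropped and 4 for XY E11.5 pool 3. The count for the change with day was 5 when XX E11.5 pool 1 was dropped and 4 when XY E11.5 pool 1 was dropped. It was 1 for each of XX E11.5 pool 2, XY E11.5 pools 2 and 3, XX E12.5 pools 2 and 3, and XY E12.5 pools 1 and 3. In each comparison the share of members called can be read against that background, and no test was made of the list. The median member difference between the sexes was 0.02 at E11.5 and -0.07 at E12.5, against 0.05 and 0 over all probe sets. That between the days was 0.06 in XX cells and 0.02 in XY cells, the same as over all probe sets.

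**Figure D1:**
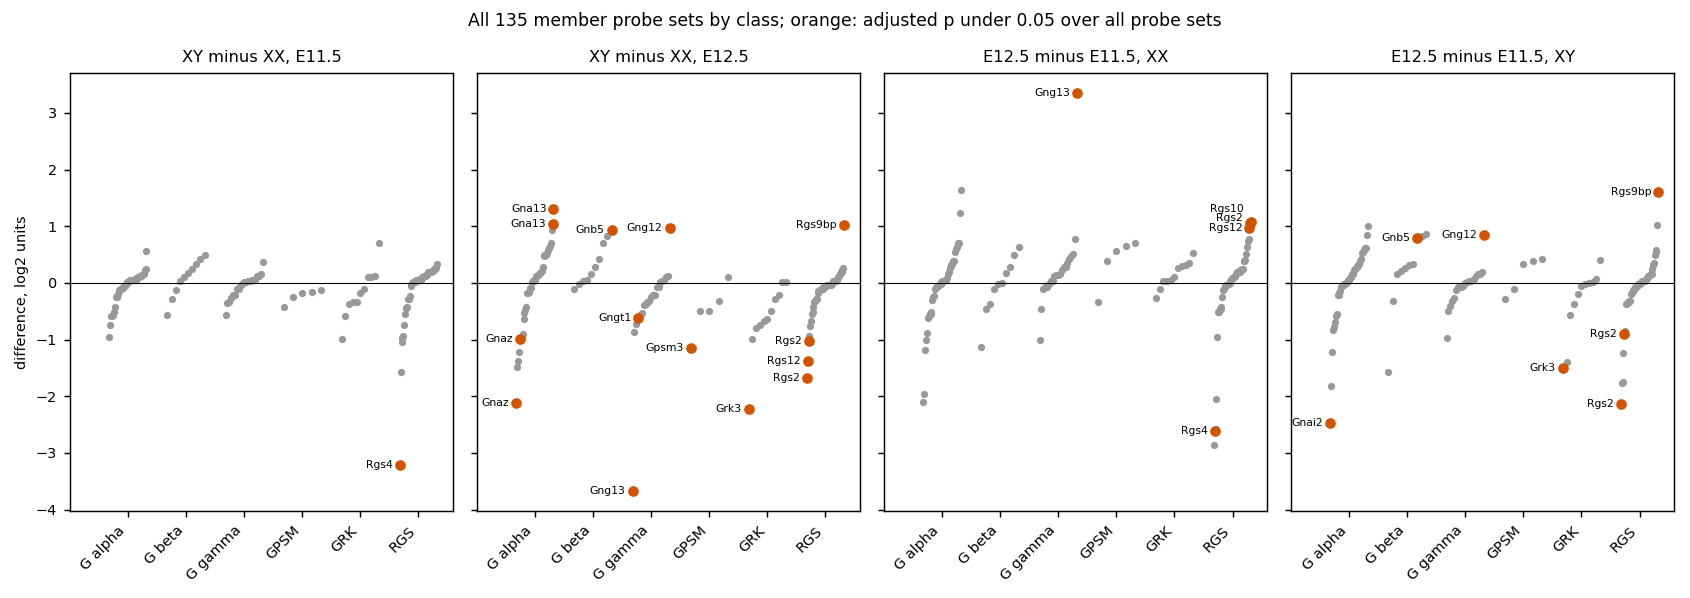
Log2 difference (y axis) of each of the 135 member probe sets, sorted within classes (x axis), for XY minus XX at E11.5 and E12.5 and for E12.5 minus E11.5 in XX and XY cells. Orange points passed an adjusted p of 0.05 and are named. Rgs4 alone is orange at E11.5, and Gng13 lies at -3.67 for XY minus XX at E12.5 and at 3.35 for the day change in XX cells.

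Promoter windows are shown for 4 genes with large or repeated differences below, Gng13, Rgs12, Rgs2 and Rgs4. They run from 250 bases before to 50 bases after a RefSeq transcript start in GRCm38.p6, and the files do not tell which start the cells used. Capitals mark matches, on either strand, to forkhead (TGTTTAC), TCF/LEF (ATCAAAG), SOX (ACAAAG), NR5A (AAGGTCA), the TATA box (TATAAA) and the core of the cAMP response element (CRE, TGACG). Each is written 5′ to 3′ on the strand of the gene.
Gng13, chr17:25716922-25717221, plus strand: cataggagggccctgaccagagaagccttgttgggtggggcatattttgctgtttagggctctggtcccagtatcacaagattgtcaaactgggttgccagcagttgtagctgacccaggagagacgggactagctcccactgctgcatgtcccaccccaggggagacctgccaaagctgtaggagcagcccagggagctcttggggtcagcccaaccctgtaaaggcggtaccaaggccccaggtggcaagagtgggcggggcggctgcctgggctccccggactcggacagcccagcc
Rgs12, chr5:34998828-34999127, plus strand: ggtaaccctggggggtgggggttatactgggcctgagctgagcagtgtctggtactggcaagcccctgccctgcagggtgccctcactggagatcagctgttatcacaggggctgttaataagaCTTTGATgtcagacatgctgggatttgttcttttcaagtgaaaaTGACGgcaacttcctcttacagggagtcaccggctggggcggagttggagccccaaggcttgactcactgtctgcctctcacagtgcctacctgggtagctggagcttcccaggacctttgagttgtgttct
Rgs2, chr1:144004100-144004399, minus strand: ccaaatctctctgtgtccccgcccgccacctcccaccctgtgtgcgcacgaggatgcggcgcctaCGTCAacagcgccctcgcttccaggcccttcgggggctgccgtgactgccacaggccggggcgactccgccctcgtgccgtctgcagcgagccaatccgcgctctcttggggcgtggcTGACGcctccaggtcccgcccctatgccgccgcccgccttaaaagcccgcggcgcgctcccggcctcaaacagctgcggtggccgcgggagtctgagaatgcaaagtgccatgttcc
Rgs4, chr1:169747593-169747892, minus strand: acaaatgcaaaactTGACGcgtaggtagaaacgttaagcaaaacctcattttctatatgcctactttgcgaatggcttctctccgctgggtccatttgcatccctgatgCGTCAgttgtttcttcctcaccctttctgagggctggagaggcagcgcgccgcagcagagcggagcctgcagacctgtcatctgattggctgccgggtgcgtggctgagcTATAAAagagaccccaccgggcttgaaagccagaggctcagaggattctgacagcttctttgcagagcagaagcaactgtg

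The Rgs2 and Rgs4 windows each held 2 CRE matches, and Rgs4 also held a TATA match. The Rgs12 window held 1 CRE match and 1 TCF/LEF match, and its other window, at chr5:34949198-34949497, held no match. Neither of the 2 Gng13 windows held a match to any of the 6. CRE matches occurred in 18.6% of the 59 windows of 44 member genes and in 20.8% of all 32851 windows, and TATA in 11.9% and 13.6%. SOX matches occurred in 5.08% of member windows and 18.7% of all, TCF/LEF in 6.78% and 3.73%, forkhead in 5.08% and 3.65%, and NR5A in 5.08% and 4.72%. A match is a string of letters and not a bound site. The 2 Gng13 windows were 62.0% (the one shown) and 72.0% G and C, the 2 Rgs12 windows 55.3% (shown) and 70.3%, the Rgs2 window 70.0% and the Rgs4 window 53.0%, against a median of 52.7% over all windows.

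Among the G gamma genes, Gng13 (probe set 1419414_at, chromosome 17) had the largest sex difference of any member at E12.5. It codes for a gamma subunit known from taste receptor cells and olfactory neurons. Its log2 signal was 5.44, 5.96 and 5.63 in XY E12.5 pools, 8.93, 9.56 and 9.56 in XX E12.5 pools, 5.47, 6.35 and 6.04 in XY E11.5 pools and 6.45, 5.77 and 5.80 in XX E11.5 pools. The 3 XX E12.5 pools were high and the other 9 overlapped. It was 12.7-fold lower in XY than in XX cells at E12.5 (log2 difference -3.67 ± 0.28 SE, adjusted p = 4.9e-05, 95% interval of the fold 8.27 to 19.6). In XX cells it was 10.2-fold higher at E12.5 than at E11.5 (3.35, adjusted p = 0.00094), and the sex difference changed with day by -3.62 (adjusted p = 0.002). No array left out and no other setting ended these 3 calls. Within XX E12.5, pool 1 was the lowest for Gng13 and for the coelomic and mesonephric list. Pool 1 was the lowest for most other marker lists too, such as the endothelial (6.36, 6.67 and 6.80 in pools 1, 2 and 3). The mural (6.61, 6.97 and 7.22) and interstitial mesenchyme lists (8.34, 8.76 and 8.82) were others. Exceptions were the pregranulosa list (11.59, 11.64 and 11.58) and the erythroid and megakaryocyte list (6.86, 6.76 and 6.59). The part of any list in the result was not tested. In pooled cells, fewer cells with a transcript and less of it per cell cannot be told apart. The second probe set of Gng13, 1447282_at, differed by -0.22 between XY and XX at E12.5 (adjusted p = 0.4) and was not called.

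Gng12 (1455089_at, chromosome 6), a widely expressed gamma subunit, went the other way. It read 11.61, 11.38 and 11.32 in XY E12.5 pools, against 10.58, 10.60 and 10.24 in XX E12.5 pools and 10.87, 10.42 and 10.46 in XY E11.5 pools. XX E11.5 pools read 10.21, 10.78 and 10.75. The 3 XY E12.5 pools were above the other 9. The excess was 1.96-fold over XX cells (0.97 ± 0.19 SE, adjusted p = 0.012) and 1.81-fold over XY cells a day earlier (0.85, adjusted p = 0.028). The sex call ended without XX E12.5 pool 3 (adjusted p = 0.054) or XY E12.5 pool 1 (0.051), and the day call without XY E11.5 pool 2 or 3 or any XY E12.5 pool (0.066 to 0.1). A block for pool number (0.052) or a fit to the compared arrays alone (0.051) also ended the day call. The other Gng12 probe set differed by -0.34 between XY and XX at E12.5 (adjusted p = 0.5).

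Gngt1 (1425167_a_at, chromosome 6), the gamma subunit of rod photoreceptors, lay at or near the background in all groups. It read 4.64, 4.73 and 4.42 in XY E12.5 pools and 5.20, 5.22 and 5.21 in XX E12.5 pools, with 4.54 to 4.84 in XY E11.5 pools and 4.62 to 4.96 in XX E11.5 pools. The call at E12.5 (-0.61, adjusted p = 0.016) ended without XX E12.5 pool 2 or 3 or XY E12.5 pool 3 (0.054 to 0.067). The other 3 probe sets of the gene were not called.

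The 8 G gamma genes with no call were Gng2, Gng3, Gng4, Gng7, Gng8, Gng10, Gng11 and Gngt2, with 13 probe sets. Their differences ran from -0.86 to 0.13 for XY minus XX at E12.5 and from -1.0 to 0.78 for the day in XX cells. The smallest p-values belonged to Gng10 (day in XX, 0.78 ± 0.23 SE, adjusted p = 0.09), Gng2 (sex at E12.5, -0.72 ± 0.24 SE, adjusted p = 0.11) and Gng4 (sex at E11.5, -0.35, adjusted p = 0.75).

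**Figure D2:**
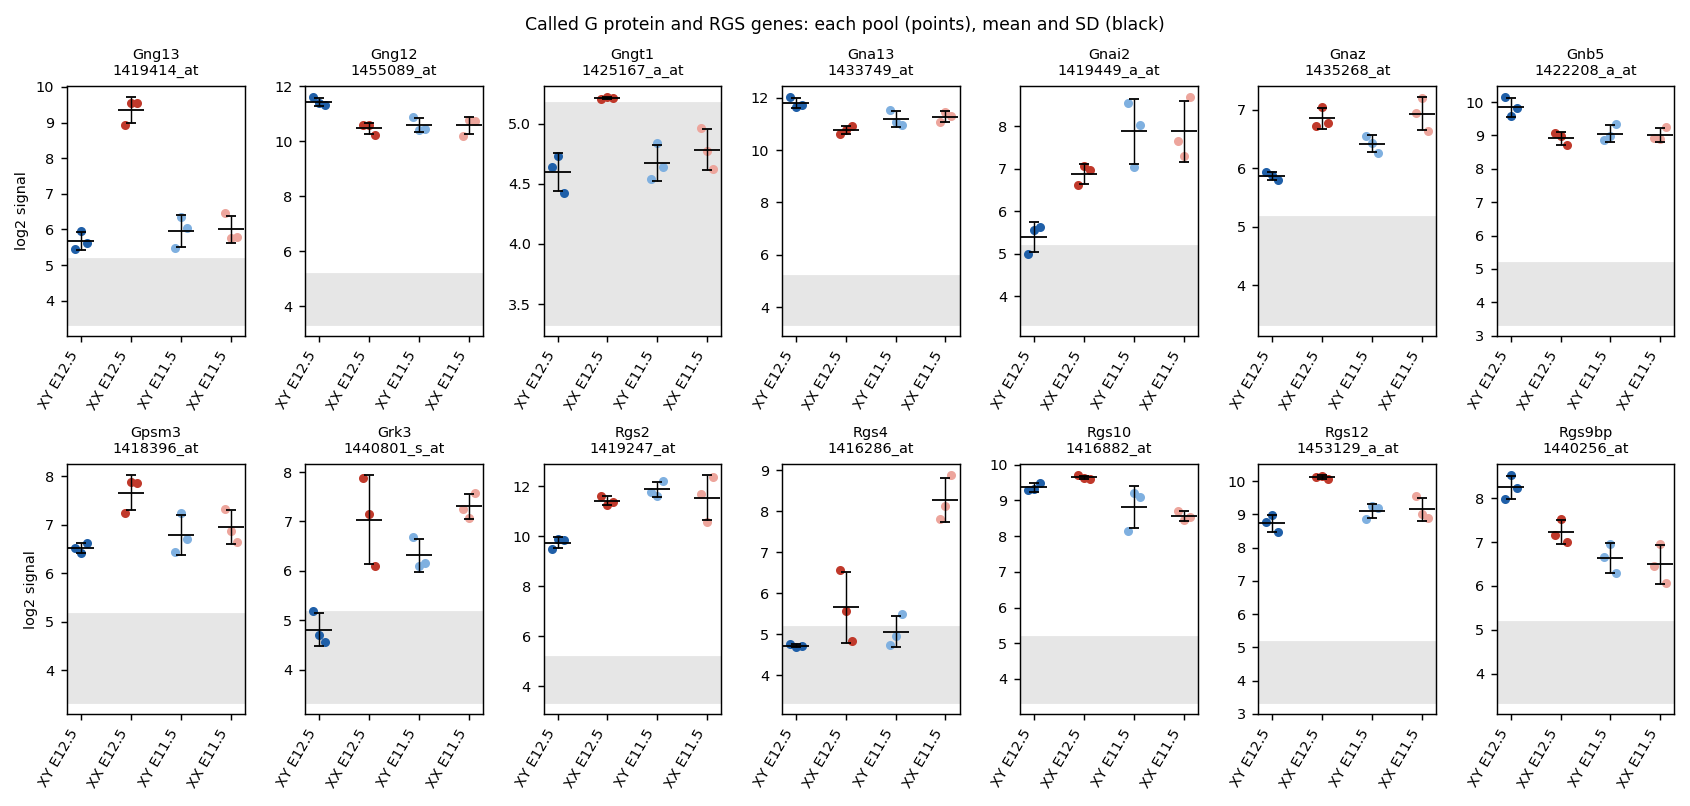
Log2 signal (y axis, a scale of its own in each panel) of the 14 called genes at the probe set with the smallest p, in XY E12.5, XX E12.5, XY E11.5 and XX E11.5 cells (x axis). Points are pools, black lines the mean with its SD (n = 3), and grey the background range of 3.33 to 5.17. Gng13 is high in the 3 XX E12.5 pools alone, at 8.93 to 9.56, and Rgs4 is highest in the 3 XX E11.5 pools, at 7.82 to 8.87.

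Of the G alpha genes, Gna13 was higher in XY cells at E12.5. Its probe set 1433749_at (chromosome 11) read 12.03, 11.66 and 11.72 in XY E12.5 pools, 10.61, 10.76 and 10.91 in XX E12.5 pools, 11.53, 11.07 and 10.97 in XY E11.5 pools and 11.07, 11.46 and 11.32 in XX E11.5 pools. XY E12.5 pools were above all others and XX E12.5 pools below all others. The difference was 2.06-fold (1.04 ± 0.18 SE, adjusted p = 0.0056) and no array left out ended it. A second probe set, 1460317_s_at, gave 2.49-fold (1.31 ± 0.26 SE, adjusted p = 0.013), a call lost without XX E12.5 pool 3 (0.056) or XY E12.5 pool 3 (0.053). The other 5 of its 7 probe sets differed by 0.17 to 0.71 and were not called.

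Gnaz codes for the Gz alpha subunit, an inhibitor of adenylyl cyclase, and both of its probe sets were lower in XY cells at E12.5. Probe set 1435268_at (chromosome 10) read 5.94, 5.88 and 5.80 in XY E12.5 pools, 6.73, 7.05 and 6.78 in XX E12.5 pools, 6.56, 6.43 and 6.27 in XY E11.5 pools and 6.95, 7.21 and 6.64 in XX E11.5 pools. XY E12.5 pools were the lowest of the 12. The difference was 1.98-fold (-0.99 ± 0.16 SE, adjusted p = 0.0037), and it passed with every array left out in turn. At 1426517_at, XY E12.5 pools read 5.13, 5.73 and 5.58 and XX E12.5 pools 7.62, 7.55 and 7.60 (-2.11 ± 0.45 SE, adjusted p = 0.018). That call ended without any one XX E12.5 pool or without XY E12.5 pool 1 or 3 (0.053 to 0.069).

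Gnai2, an inhibitory alpha subunit, was called at 1 of its 2 probe sets, 1419449_a_at (chromosome 9). It read 5.0, 5.56 and 5.64 in XY E12.5 pools, 6.61, 7.06 and 6.97 in XX E12.5 pools, 8.56, 7.04 and 8.04 in XY E11.5 pools and 7.65, 7.31 and 8.69 in XX E11.5 pools. XY E12.5 pools were the lowest and near the background range, with pool 1 inside it. The day difference in XY cells was 5.59-fold downward (-2.48 ± 0.42 SE, adjusted p = 0.008), and that against XX at E12.5 was -1.48 (adjusted p = 0.062). With only the probe sets brighter than the median, array weights or the compared arrays alone, the sex difference passed (0.034, 0.019 and 0.012). The other probe set of the gene, 1435652_a_at, read 11.40 to 11.85 in XY E12.5 pools and 11.15 to 12.05 in XY E11.5 pools, a difference of -0.05 (adjusted p = 0.95).

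Probe sets of 1 gene thus gave different pictures, and part of this followed single pools of E11.5. Gna13 at 1422555_s_at read 5.76 to 7.85 in E12.5 pools. Of the E11.5 pools, XY pools 1 and 3 read 9.97 and 9.97 and XX pool 3 read 10.02, against 7.51 to 8.88 in the others. Gnb1 at 1425908_at read 7.48 and 7.47 in XY E11.5 pools 1 and 3 and 7.30 in XX E11.5 pool 3, and 5.93 to 6.49 in the other E11.5 pools. Gnai2 at 1419449_a_at was highest in the same 3 pools, at 8.56, 8.04 and 8.69. These values were chosen after they were seen, and what the 3 pools share was not tested. The likeness was not confined to these genes for 2 of the pools. Over all probe sets, deviations from the group mean in XX E11.5 pool 3 correlated at 0.304 with XY E11.5 pool 1. The values were 0.045 with XY E11.5 pool 3 and -0.36 with XY E11.5 pool 2. XX E11.5 pool 1 correlated at 0.396 with XY E11.5 pool 2 and at -0.398 with XY E11.5 pool 1. Deviations within a group are tied to each other, so these values are not independent. The day difference of Gna13 at 1422555_s_at was -2.10 in XX (adjusted p = 0.16) and -1.81 in XY cells (adjusted p = 0.24).

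**Figure D3:**
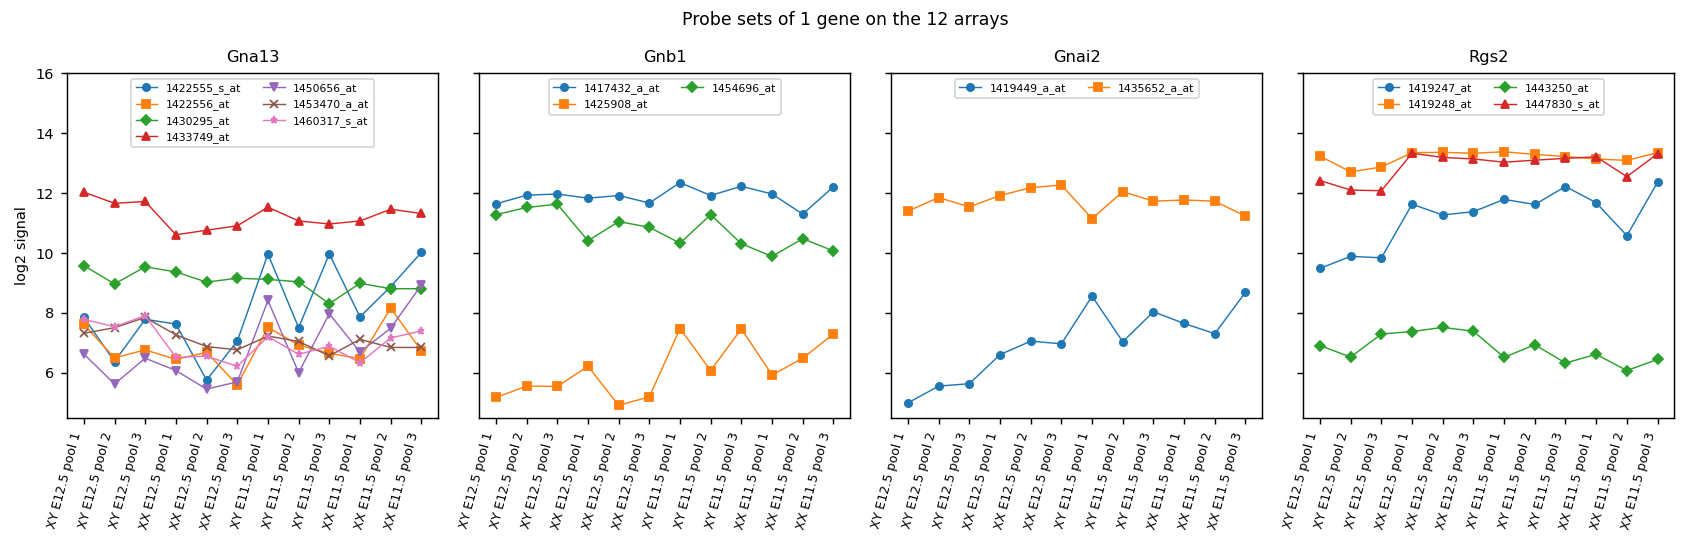
Log2 signal (y axis) of every probe set of Gna13, Gnb1, Gnai2 and Rgs2 on the 12 arrays (x axis, with pools joined by lines only to guide the eye). Gna13 1422555_s_at, Gnb1 1425908_at and Gnai2 1419449_a_at are high in XY E11.5 pools 1 and 3 and XX E11.5 pool 3, while the other probe sets of Gnb1 and Gnai2 vary less.

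The 11 G alpha genes with no call were Gna11, Gna12, Gna14, Gna15, Gnai1, Gnai3, Gnal, Gnao1, Gnaq, Gnat1 and Gnat2, with 31 probe sets. Their differences ran from -1.37 to 0.93 for XY minus XX at E12.5. Nearest to a call were Gnaq, which activates phospholipase C beta (1428938_at, sex at E12.5, 0.93 ± 0.27 SE, adjusted p = 0.065), and Gnao1 (day in XX, 0.39, adjusted p = 0.11). Gna12, the closest relative of Gna13, read 9.68, 10.21 and 9.76 in XY E11.5 pools and 9.34, 9.23 and 9.38 in XX E11.5 pools (0.57 ± 0.16 SE, adjusted p = 0.49).

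Of the G beta genes, Gnb5 was the one called. Its product pairs with RGS proteins of the R7 family (RGS6, RGS7, RGS9 and RGS11) in place of a gamma subunit. Probe set 1422208_a_at (chromosome 9) read 10.15, 9.57 and 9.81 in XY E12.5 pools, 9.07, 8.99 and 8.70 in XX E12.5 pools, 8.85, 8.98 and 9.33 in XY E11.5 pools and 8.92, 8.89 and 9.26 in XX E11.5 pools. XY E12.5 pools were above the other 9. It was 1.90-fold higher in XY than in XX cells at E12.5 (0.93 ± 0.19 SE, adjusted p = 0.015) and 1.73-fold higher than in XY cells at E11.5 (0.79, adjusted p = 0.036). The first call ended without XX E12.5 pool 3 (0.063) or XY E12.5 pool 1 (0.054). The second ended without XY E11.5 pool 1 or 2, XX E12.5 pool 2 or XY E12.5 pool 1 or 3 (0.055 to 0.11), and with quantile normalization (0.067), a variance prior following the mean (0.055), the pool block (0.057) or the compared arrays alone (0.1). Its other probe set differed by 0.15 between the sexes at E12.5.

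Rgs9bp, which tethers the R7 protein RGS9 to photoreceptor membranes, was also highest in XY E12.5 pools. Probe set 1440256_at (chromosome 7) read 7.98, 8.52 and 8.24 in XY E12.5 pools, 7.15, 7.53 and 7.01 in XX E12.5 pools, 6.65, 6.96 and 6.29 in XY E11.5 pools and 6.45, 6.96 and 6.06 in XX E11.5 pools. All XY E12.5 pools were above the rest and all XX E12.5 pools above both E11.5 groups. It was 3.06-fold higher at E12.5 than at E11.5 in XY cells (1.61 ± 0.26 SE, adjusted p = 0.0062), and no array left out ended that. The day difference in XX cells was 0.74 (adjusted p = 0.13), and it passed with the pool block (0.043). It was 2.03-fold higher in XY than in XX cells at E12.5 (1.02, adjusted p = 0.04), which held only without XX E11.5 pool 2 or 3 or XY E11.5 pool 2 or 3 (0.052 to 0.14 without any other array). Among R7 genes, Rgs7 read 7.41, 7.57 and 7.92 in XY E12.5 pools and 6.14, 6.80 and 6.86 in XY E11.5 pools (1.03 ± 0.28 SE, adjusted p = 0.058). Rgs6, Rgs9 and Rgs11 had no call.

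Gnb1, Gnb2, Gnb3 and Gnb4 had no call at 8 probe sets. Their differences ran from -0.11 to 0.83 for XY minus XX at E12.5. Gnb1 1425908_at gave -1.58 ± 0.47 SE for the day in XY cells (adjusted p = 0.083), Gnb4 0.87 for the same comparison (0.13) and Gnb2 0.49 for the day in XX cells (0.2).

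Of the RGS genes, Rgs2 codes for a regulator that acts preferentially on Gq. Its probe set 1419247_at (chromosome 1) read 9.49, 9.89 and 9.84 in XY E12.5 pools, 11.63, 11.27 and 11.38 in XX E12.5 pools, 11.79, 11.62 and 12.22 in XY E11.5 pools and 11.68, 10.58 and 12.36 in XX E11.5 pools. XY E12.5 pools were below all others, and XX E11.5 pool 2 was the next lowest. The gene was 4.39-fold lower at E12.5 than at E11.5 in XY cells (-2.14 ± 0.37 SE, adjusted p = 0.009), a call kept with every array left out. It was 3.21-fold lower in XY than in XX cells at E12.5 (-1.68, adjusted p = 0.02), a call lost without any one XX E12.5 pool or without XY E12.5 pool 1 or 3 (0.052 to 0.075).

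The probe set 1447830_s_at of Rgs2 read 12.42, 12.10 and 12.08 in XY E12.5 pools and 13.33, 13.19 and 13.14 in XX E12.5 pools (-1.02 ± 0.19 SE, adjusted p = 0.0089, kept with every array left out). It was also lower than in XY E11.5 pools, at 13.03, 13.10 and 13.16 (-0.90, adjusted p = 0.021), but not without XY E11.5 pool 3 or XY E12.5 pool 2 or 3 (0.071 to 0.084). Another Rgs2 probe set, 1443250_at, was higher in XX cells at E12.5 (7.38, 7.52 and 7.39) than at E11.5 (6.62, 6.08 and 6.45; 1.05 ± 0.22 SE, adjusted p = 0.039). That call ended without XX E11.5 pool 2 or 3, any XX E12.5 pool or XY E12.5 pool 1 (0.056 to 0.13), and with the pool block (0.063). The fourth, 1419248_at, read 12.71 to 13.23 in XY E12.5 pools and 13.33 to 13.36 in XX E12.5 pools and was not called.

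Rgs4, which ends Gi and Gq signals in neurons, was the member called at E11.5. Probe set 1416286_at (chromosome 1) read 4.77, 4.69 and 4.72 in XY E12.5 pools, 6.56, 5.57 and 4.84 in XX E12.5 pools, 4.74, 4.97 and 5.49 in XY E11.5 pools and 7.82, 8.13 and 8.87 in XX E11.5 pools. XX E11.5 pools were above the other 9, and all XY E12.5 pools lay within the background. Rgs4 was 9.25-fold lower in XY than in XX cells at E11.5 (-3.21 ± 0.40 SE, adjusted p = 0.02), with the XY mean of 5.07 inside the background range, where log2 values compress a fold. It was 6.14-fold lower in XX cells at E12.5 than at E11.5 (-2.62, adjusted p = 0.013).

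The E11.5 call of Rgs4 ended without XX E11.5 pool 2 or 3, XY E11.5 pool 1 or 2, XX E12.5 pool 2 or XY E12.5 pool 3 (0.056 to 0.098), with the pool block (0.09) and with the compared arrays alone (0.18). The day call ended without XX E12.5 pool 2 (0.057) and with the compared arrays alone (0.063). The change of its sex difference with day was 2.28 (adjusted p = 0.082). The other 2 Rgs4 probe sets were not called, with differences of -0.55 to 0.05 at E11.5. In XX E11.5 pools 1, 2 and 3 the endothelial list averaged 6.65, 8.34 and 6.34 and the interstitial mesenchyme list 8.57, 10.02 and 8.55. The 7 measured mural markers averaged 6.16 to 6.67 in XX E11.5 pools and 6.09 to 7.22 on the other arrays. The part of other cell types in the Rgs4 values was not tested.

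Rgs12, an RGS protein with a GoLoco motif that also binds inhibitory alpha subunits, was lower in XY cells at E12.5. Probe set 1453129_a_at (chromosome 5) read 8.77, 8.97 and 8.46 in XY E12.5 pools, 10.12, 10.17 and 10.05 in XX E12.5 pools, 8.85, 9.26 and 9.18 in XY E11.5 pools and 9.54, 9.01 and 8.90 in XX E11.5 pools. XX E12.5 pools were above the other 9. The sex difference was 2.61-fold (-1.38 ± 0.19 SE, adjusted p = 0.0018), kept with every array left out. In XX cells it was 1.96-fold higher at E12.5 than at E11.5 (0.97, adjusted p = 0.03), which ended without XX E11.5 pool 2 or 3 or any XX E12.5 pool (0.054 to 0.11) and with the compared arrays alone (0.072). The change of the sex difference with day was -1.33 (adjusted p = 0.04). It passed only without XX E11.5 pool 1, XY E11.5 pool 1 or XY E12.5 pool 2 (0.068 to 0.1 without any other array), and not with quantile normalization (0.05), a variance prior following the mean (0.06) or the pool block (0.067). The other 2 Rgs12 probe sets differed by -0.18 and -0.14 between XY and XX at E12.5.

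Rgs10, a small RGS protein, had 1 probe set (1416882_at, chromosome 7). It read 9.28, 9.31 and 9.50 in XY E12.5 pools, 9.70, 9.63 and 9.61 in XX E12.5 pools, 8.14, 9.22 and 9.09 in XY E11.5 pools and 8.70, 8.45 and 8.54 in XX E11.5 pools. In XX cells E12.5 and E11.5 did not overlap, at 2.12-fold (1.08 ± 0.24 SE, adjusted p = 0.042). The call was kept only when one of the XY E11.5 pools was left out (0.051 to 0.13 without any other array), and it ended with the pool block (0.059).

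Of the regulators outside the RGS family, Gpsm3, a GoLoco protein best known from blood cells, was lower in XY cells at E12.5. Probe set 1418396_at (chromosome 17) read 6.51, 6.41 and 6.62 in XY E12.5 pools, 7.25, 7.88 and 7.85 in XX E12.5 pools, 6.43, 7.24 and 6.70 in XY E11.5 pools and 7.33, 6.87 and 6.65 in XX E11.5 pools. The E12.5 groups did not overlap (2.21-fold, -1.15 ± 0.25 SE, adjusted p = 0.02), and the call ended without XX E12.5 pool 2 or 3 or any XY E12.5 pool (0.053 to 0.081). The macrophage and leukocyte list of 15 markers averaged 7.27 to 7.58 in XY E12.5 pools and 6.81 to 6.96 in XX E12.5 pools. The coelomic and mesonephric list averaged 7.12 to 7.31 in XY E12.5 pools and 7.36, 8.18 and 8.03 in XX E12.5 pools, with pool 1 the lowest as for Gpsm3. Pool 1 was the lowest of the XX E12.5 pools for most other marker lists as well. The part of any list in the result was not tested. Gpsm1 and Gpsm2 had no call. The nearest was Gpsm1 1423690_s_at for the day in XX cells (0.65 ± 0.18 SE, adjusted p = 0.08), and Gpsm2, which orients the mitotic spindle, gave -0.34 for the same comparison (0.6).

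Grk3, a receptor kinase recruited by free beta-gamma subunits, was called at 1440801_s_at (chromosome 5). It read 5.18, 4.70 and 4.56 in XY E12.5 pools, 7.87, 7.15 and 6.09 in XX E12.5 pools, 6.69, 6.09 and 6.16 in XY E11.5 pools and 7.26, 7.07 and 7.58 in XX E11.5 pools. XY E12.5 pools were below the other 9 and near the background, so the fold is compressed. It was 4.67-fold lower in XY than in XX cells at E12.5 (-2.22 ± 0.39 SE, adjusted p = 0.0063), kept with every array left out. Against XY cells at E11.5 it was 2.82-fold lower (-1.50, adjusted p = 0.049). That call was kept only without XX E12.5 pool 1 or 3 (0.057 to 0.16 without any other array), and ended with quantile normalization (0.054), median centring (0.052) and array weights (0.054). The other 2 probe sets of Grk3 differed by -0.68 and -0.29 at E12.5 and were not called.

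Grk1, Grk4, Grk5 and Grk6 had no call. Grk4 1420355_at came nearest, at 5.94, 5.82 and 5.32 in XY E12.5 pools and 6.65, 7.28 and 7.32 in XY E11.5 pools (-1.39 ± 0.36 SE, adjusted p = 0.051). Grk6 gave -0.64 for sex at E12.5 (0.22) and Grk5 -0.99 (0.43).

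Among the 16 genes with an Rgs symbol and no call, Rgs7, Rgs16 (day in XY, 0.50 ± 0.16 SE, adjusted p = 0.094) and Rgs3 (day in XX, 0.51 ± 0.16 SE, adjusted p = 0.1) had the smallest p-values. The others were Rgs1, Rgs5, Rgs6, Rgs7bp, Rgs8, Rgs9, Rgs11, Rgs13, Rgs14, Rgs17, Rgs18, Rgs19 and Rgs20. The 34 probe sets of the 16 genes differed by -0.76 to 0.26 for XY minus XX at E12.5 and by -2.86 to 0.78 for the day in XX cells. The low end of that range was Rgs18.

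Rgs5 was set apart by a single pool and Rgs18 by several pools of E11.5, and these values were chosen after they were seen. Rgs5, a marker of pericytes, read 11.38 at 1417466_at in XX E11.5 pool 2 and 5.64 to 8.52 on the other arrays. At 1420941_at it read 8.06 in that pool and 5.02 to 5.21 elsewhere. The pool also had the highest Tek (10.23), Cldn5 (9.76), Kdr (10.24) and Cdh5 (8.81), all endothelial markers, and 13 of the 15 on that list were highest there. Of the 10 interstitial mesenchyme markers 5 were highest in that pool, Tcf21 (9.82) and Col3a1 (10.95) among them. Of the mural list, Pdgfrb was highest there as well, at 10.77 (10.60 in XX E12.5 pool 3), while Cspg4 read 7.66 and Higd1b and Anpep were below 5.17. Rgs5 differed by -2.05 for the day in XX cells (adjusted p = 0.23), and by -0.88 without XX E11.5 pool 2 (adjusted p = 0.56).

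Rgs18, a regulator known from platelets and megakaryocytes, read at 1449856_at 4.24 to 4.52 in all E12.5 pools, against 4.34, 5.63 and 8.57 in XY E11.5 pools and 7.06, 9.41 and 5.21 in XX E11.5 pools. At 1420398_at all E12.5 pools read 3.60 to 3.92 and all E11.5 pools 3.95 to 9.09. These E11.5 values lay within the background range except in pool 3 of XY and pool 2 of XX (8.10 and 9.09). Those 2 pools were the highest at 1449856_at too. The megakaryocyte marker Pf4 read 10.39 and 11.81 in those pools, 10.50 in XX E11.5 pool 1 and 5.96 to 10.33 on the other arrays. Itga2b read 8.54, 9.10 and 8.64 in the same 3 pools and 7.37 to 8.13 elsewhere. Other markers of this list did not follow that order: in XY E11.5 pool 3 Gp9 read 6.93 and Gata1 6.56, inside their ranges on the other arrays (6.55 to 7.40 and 6.13 to 7.81). The 9 measured erythroid and megakaryocyte markers averaged 6.44, 7.02 and 7.0 in XY E11.5 pools, 7.27, 7.54 and 6.58 in XX E11.5 pools and 6.59 to 7.31 in E12.5 pools. The day difference of Rgs18 in XX cells was -2.86 (adjusted p = 0.17), and -1.77 without XX E11.5 pool 2 (adjusted p = 0.4). The part of other cell types in the Rgs5 and Rgs18 values was not tested.

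**Figure D4:**
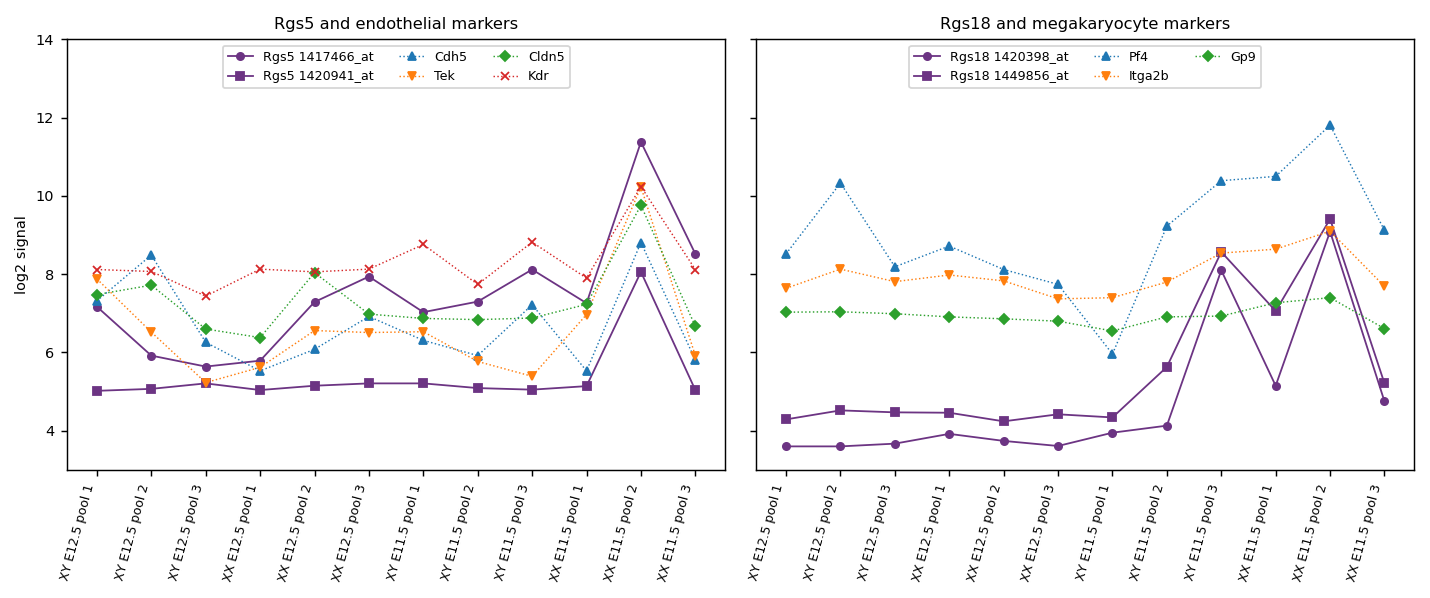
Log2 signal (y axis) on the 12 arrays (x axis, lines only to guide the eye) of Rgs5 beside 4 endothelial markers and of Rgs18 beside 3 megakaryocyte markers. Rgs5 1417466_at peaks at 11.38 in XX E11.5 pool 2 together with the endothelial markers, and Rgs18 1449856_at is high in XY E11.5 pool 3 (8.57) and in XX E11.5 pool 2 (9.41).

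Other genes of the pathway were read from a list of 94 receptors, effectors and cAMP pathway genes, of which 85 were measured at 210 probe sets. At E12.5, 10 probe sets (8 genes) were higher and 22 (12 genes) lower in XY than in XX cells, 15.2% of the list against 7.72% of all probe sets. At E11.5 there were none by limma. From E11.5 to E12.5, 11 increased and 5 decreased in XX cells (7.62%, against 3.11% of all), and 8 increased and 15 decreased in XY cells (11%, against 6.16%). The list was chosen with earlier results of these data known and was not tested as a list. Leaving out 1 array moved these counts. The 32 calls between the sexes at E12.5 became 21 without XX E12.5 pool 3. The 16 for the day in XX became 2 without XX E12.5 pool 3, 4 without XX E12.5 pool 2, 7 without XX E11.5 pool 2 and 8 without XX E11.5 pool 3. The 23 for the day in XY became 11 when either XY E11.5 pool 3 or XY E12.5 pool 3 was dropped, and 15 when XY E12.5 pool 1 was. For the genes named from the list, no single array left out ended a call between the sexes at E12.5.

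Adenylyl cyclases, which make cAMP, moved in both directions. Adcy7 (1456307_s_at) read 10.83, 9.77 and 10.91 in XY E12.5 pools and 13.70, 13.62 and 13.55 in XX E12.5 pools, with 13.48 to 13.64 in all E11.5 pools. It was 8.69-fold lower in XY cells at E12.5 (-3.12 ± 0.25 SE, adjusted p = 6.1e-05), at 3 of 3 probe sets, and 8.52-fold lower than in XY cells at E11.5. Adcy3 (1421960_at) read 8.48, 8.39 and 8.39 in XY E12.5 pools and 9.83, 10.06 and 9.90 in XX E12.5 pools (-1.51 ± 0.10 SE, adjusted p = 2.9e-05), and was called at 3 of 4 probe sets. Like Gng13, Adcy3 was higher in XX cells at E12.5 than at E11.5 (1.36, adjusted p = 0.00075). Both cyclases' sex differences changed with day, by -3.16 for Adcy7 (adjusted p = 0.0021) and -1.66 for Adcy3 (adjusted p = 0.00071). Adcy9 went the other way, at 10.44, 10.85 and 10.47 in XY E12.5 pools and 8.31, 8.69 and 9.14 in XX E12.5 pools (1.87 ± 0.22 SE, adjusted p = 0.00065), called at 3 of 4 probe sets. Adcy2 increased with day in XX cells (1.38, adjusted p = 0.021), but not without XX E11.5 pool 3 or XX E12.5 pool 2 or 3 (0.062 to 0.075).

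Downstream of cAMP, Prkar1b, a regulatory subunit of protein kinase A, averaged 8.24 ± 0.12 in XY E12.5 pools and 11.31 ± 0.07 in XX E12.5 pools (SD, n = 3; -3.07, adjusted p = 0.0007), and 3 of 5 probe sets were called. Pde8b, a cAMP phosphodiesterase, was higher at E12.5 in both sexes, 7.86-fold in XY (adjusted p = 4.6e-05) and 3.57-fold in XX cells (adjusted p = 0.004). Pde7a, another, was lower in XY than in XX cells at E12.5 at 1458218_s_at (-1.59, adjusted p = 0.0013), 1 of its 7 probe sets called. It decreased with day in XY cells at 5 of 7 probe sets (-1.29 at 1458218_s_at, adjusted p = 0.0063). In XX cells it decreased with day at 2 of 7 (-1.48 at 1439484_at, adjusted p = 0.018). The call at 1439484_at ended without XX E11.5 pool 2 or 3 or XX E12.5 pool 2 or 3 (0.056 to 0.081). Prkcb, a protein kinase C, was higher in XY cells at E12.5 (1.45, adjusted p = 0.0039) at 1 of 3 probe sets. Itpr2, an inositol trisphosphate receptor, was lower at 4 of 6 probe sets (-1.66 at 1444418_at, adjusted p = 0.00074).

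Ric8a, a chaperone and exchange factor of alpha subunits, averaged 7.72 ± 0.04 in XY E12.5 pools and 9.03 ± 0.36 in XX E12.5 pools (SD, n = 3; -1.30, adjusted p = 0.0034), with 2 of 4 probe sets called. The angiotensin receptor gene Agtr1a read 7.95, 9.74 and 9.70 in XX E12.5 pools and 6.40, 6.11 and 6.84 in XX E11.5 pools (2.68 ± 0.43 SE, adjusted p = 0.016), lost without XX E12.5 pool 2 (0.064) or 3 (0.072). Pool 1 of XX E12.5 was the lowest of the 3 for Agtr1a, as for the coelomic and mesonephric list (7.36, 8.18 and 8.03) and its marker Upk3b (7.02, 9.15 and 8.72). It was the lowest for most other marker lists as well, and the part of any list was not tested. The orphan receptor gene Gprc5b also increased in XX cells at 1 of 2 probe sets (1.86, adjusted p = 0.018), lost without XX E12.5 pool 2 (0.056) or 3 (0.073). Gnas, the stimulatory alpha subunit left out of the members by the rule, was lower in XY cells at E12.5 than at E11.5 at 1443375_at (-1.61, adjusted p = 0.013), 1 of 2 called among its 5 probe sets, with an E12.5 mean of 4.97 inside the background range. It was lost without XY E11.5 pool 3 (0.051) or XY E12.5 pool 3 (0.052). Prkar2a, a further protein kinase A subunit, decreased in XY cells at 1 of 4 probe sets (-0.97, adjusted p = 0.017), but not without XY E11.5 pool 3 or XY E12.5 pool 2 or 3 (0.061 to 0.064).

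Snx13, a sorting nexin with an RGS-like domain, decreased with day in XX cells at 1 of 3 probe sets (-1.06, adjusted p = 0.018), but not without XX E11.5 pool 2 or 3 or XX E12.5 pool 2 or 3 (0.053 to 0.079). Arrb1, an arrestin, and Pde8a, at 1 of 2 probe sets, had sex differences that moved upward with day (2.43, adjusted p = 0.045, and 1.45, adjusted p = 0.048). Both ended when single arrays were left out, Arrb1 for 8 of 12 arrays (up to 0.12) and Pde8a for 9 of 12 (up to 0.12).

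**Figure D5:**
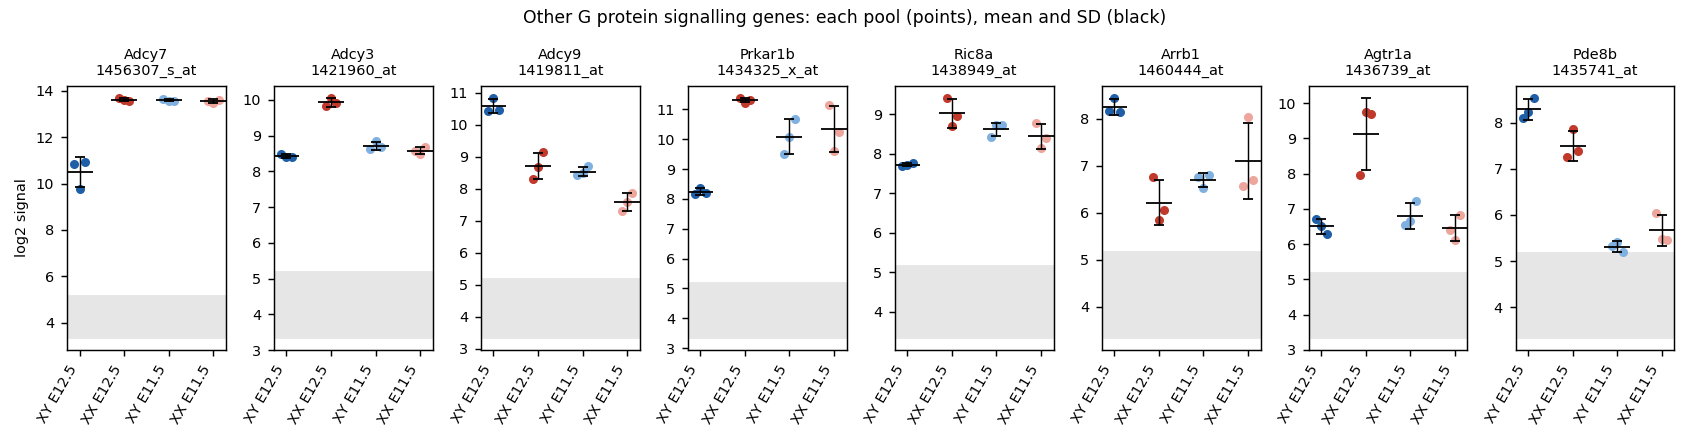
Log2 signal (y axis, a scale of its own in each panel) of 8 other G protein signalling genes in XY E12.5, XX E12.5, XY E11.5 and XX E11.5 cells (x axis). Points are pools, black lines the mean with its SD (n = 3), and grey the background range. Adcy7 is low in the 3 XY E12.5 pools alone, at 9.77 to 10.91, and Adcy3 is high in the 3 XX E12.5 pools alone, at 9.83 to 10.06.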

How the data were processed

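The authors deposited 1 table of log2 values per probe set, from 12 arrays. Per the labels' protocols, PicoPure RNA was amplified in 2 TargetAmp rounds and biotin-labelled. For summarisation, normalization and log base, nothing is given in the sources used here. A largest value of 14.45 was read as log2. Of 45037 probe sets, 798 were blank on every array and 1 on some arrays only. Symbols came from the platform annotation, updated through Entrez identifiers (RefSeq, GRCm38.p6, 34126 matched). There were 34328 probe sets with 1 symbol, 850 with several and 9060 with none; 3 probe sets with a member among several symbols were left out. Array medians were 6.494 to 6.592. Precision is limited by 3 arrays per group.

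The fit used lmFit and eBayes of limma 3.58.1 (R 4.3.3) on 4 group means over 12 arrays, with 8 residual degrees of freedom and Benjamini-Hochberg adjustment over 44238 probe sets, two-sided. Comparisons were made between sexes within a day, between days within a sex, and between the 2 sex differences. A fold is 2 to the power of the log2 difference. The fit was tested on simulated data. The members and gene lists were chosen with earlier results of these data known. Every called gene was named, at the probe set with the smallest p, with up to 3 uncalled genes per class and up to 8 called genes of the pathway list per comparison. In their deviations from the group means, same-numbered pools of different groups correlated at -0.398 to 0.235, with 4 of 18 pairs over 0.1. Numbers were therefore not taken as pairs. Differently numbered pools correlated at -0.36 to 0.396, both ends between XX and XY pools of E11.5, and the source of this was not tested. Alternatives were a brightness filter, 2 scalings, a mean-dependent prior, array weights, 1 probe set per gene, a pool block, a 2-fold minimum, a fit to the compared arrays and leaving out each array. RefSeq promoter windows matched 44 of 59 genes.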

Additional observations from a re-analysis of the deposited data

Results flagged for a closer look

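The sex difference of Gng13 (1419414_at) differed between the days by the test of the difference itself. XY minus XX was -3.67 at E12.5 and -0.05 at E11.5, a change of -3.62 (adjusted p = 0.002), and every XX E12.5 pool was above every other array. Rgs12 (1453129_a_at) moved the same way, with XY minus XX of -1.38 at E12.5 and -0.05 at E11.5, a change of -1.33 (adjusted p = 0.04). The Rgs12 call was less stable. It ended for 9 of 12 arrays left out and in 3 of 6 other settings (adjusted p up to 0.1), while that of Gng13 was kept throughout. The groups hold 3 pools each, so single values were not tested for standing apart.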

How the results depend on the processing

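Under the alternatives and with each array left out, the log2 differences of the named members kept their direction at all called comparisons. Over all results for named members, 1532 of the recomputed values stayed on their side of the threshold, 109 lost the call and 26 gained one. Most of these values belong to comparisons that had no call to lose, so the share of calls lost is larger. The day call of Grk3 in XY cells ended for 10 of 12 arrays left out, and the calls of Gng13 were kept throughout. The single call of XY against XX at E11.5 became 0 with the compared arrays alone. It was also 0 with only the probe sets brighter than the median and with 1 probe set per gene. Both of these settings left out the called probe set of Rgs4, so they did not test it again. The 14 calls at E12.5 became 23 with array weights. The 5 calls for the day in XX became 3 with the compared arrays alone and 3 with 1 probe set per gene, which left out the called probe sets of Rgs4 and Rgs2. The 7 for the day in XY became 4 with a 2-fold minimum and 11 with array weights. The 2 for the change of the sex difference became 1 with quantile normalization, 1 with a prior following the mean and 5 with array weights. The cause of the other moves was not tested. With each array left out, the counts ran from 0 to 1, 6 to 17, 1 to 5, 3 to 9 and 1 to 5 for these comparisons, in the same order.

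With pool number as a replicate block, the counts were 0, 15, 4, 6 and 1, against 1, 14, 5, 7 and 2 without it. The labels do not say that a number marks a shared litter or day. Signal limits Gngt1, Rgs4 and Grk3, where a group mean lay within 3.33 to 5.17.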
